A study of Mus musculus with 11 samples.

Results

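The gene products described here carry or restrain the death signal that a hepatocyte receives at its surface. They are the receptors Tnfrsf10b (the TRAIL receptor DR5), Fas and Tnfrsf1a (the first TNF receptor), the adaptor Fadd, the kinase Ripk1, the inhibitor Cflar (c-FLIP) and the initiator caspases Casp8 and Casp9. These 8 genes were chosen by name among 54232 Ensembl gene identifiers, and all 8 were among the 13303 genes with enough counts to be tested. RNA-seq was performed on hepatocytes isolated and Percoll-purified from adult male C57BL/6 mice, in 11 libraries. Control mice, Xbp1 fl/fl, carry floxed Xbp1 alleles and keep the gene, and Xbp1 LKO mice lack it in the liver through Cre driven by the albumin promoter. Either genotype ate standard chow or a diet rich in fat and sugar (HFS diet), namely a Western diet with fructose and glucose in the drinking water, for up to 6 weeks. There were 3 chow-fed Xbp1 fl/fl libraries, 2 chow-fed Xbp1 LKO libraries and 3 HFS-fed libraries of each genotype. A chow library is 1 mouse, whereas an HFS library is a pool of 2 mice, so the spread between libraries is not of the same kind on both diets.

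As background, a death receptor that has bound its ligand gathers Fadd, and Fadd brings in Casp8, which cuts itself and then other proteins. Cflar resembles Casp8 without its protease activity and takes its place in that complex. Tnfrsf1a first builds a complex around Ripk1 that signals survival, and turns to Casp8 when that complex fails. In hepatocytes the receptor signal is known to need the mitochondrial route, in which cytochrome c, Apaf1 and Casp9 form the apoptosome that activates the executioner caspases. Xbp1 encodes a transcription factor of the unfolded protein response that the endoplasmic reticulum nuclease IRE1α (Ern1) switches on by splicing its mRNA. Tnfrsf10b is a known target of CHOP (Ddit3), a transcription factor induced by endoplasmic reticulum stress, and its mRNA has been described as a substrate of IRE1α.

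Each library held 19191032 to 23888401 counts. Xbp1 was lower in each Xbp1 LKO library (95.7 to 135 CPM, counts per 1000000 counts) than in each Xbp1 fl/fl library (194 to 301 CPM). These counts cover the whole gene and do not separate the deleted exon. The TMM factors that rescale each library were 0.878 to 0.938 in Xbp1 fl/fl and 1.05 to 1.19 in Xbp1 LKO libraries, and all CPM values below use them. Hepatocyte markers were abundant in all libraries, yet their summed level was lower in Xbp1 LKO (60165 to 111706 CPM) than in Xbp1 fl/fl libraries (150600 to 197490 CPM), with 6 of 14 past the threshold when averaged over diets. Xbp1 LKO chow library 2, which is numbered by its sample title although its deposited file bears the number 3, stood apart, with 1.67% of its counts in albumin against 3.33 to 10.9% in the other libraries, and values that rest on it are given with and without it. Macrophage markers, which bear on Fas, Tnfrsf1a and Casp8 because leukocytes express them too, summed to 23.6 to 101 CPM in chow-fed Xbp1 fl/fl, 27.0 to 40.0 CPM in chow-fed Xbp1 LKO, 44.5 to 63.2 CPM in HFS-fed Xbp1 fl/fl and 63.4 to 113 CPM in HFS-fed Xbp1 LKO libraries. Endothelial markers, another source of the receptors, summed to 55.9 to 139, 33.9 to 43.9, 108 to 187 and 89.2 to 150 CPM in the same order of groups. None of the 14 macrophage and 12 endothelial markers was at 0 in all libraries, and the part of these cells in the results was not tested. Fewer cells of a type and less RNA per cell cannot be told apart in bulk RNA.

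Tnfrsf10b was the member whose level separated the genotypes, and it was the least abundant of the 8. The gene lies at chr14:69767472-69784411 on the plus strand (GRCm38), with 8 exons in its coding transcript. Raw counts are given first because they are small. On chow the gene had 4, 6 and 3 counts in Xbp1 fl/fl libraries 1, 2 and 3, and 15 and 35 counts in Xbp1 LKO libraries 1 and 2. In the HFS-fed Xbp1 fl/fl libraries it had 5, 6 and 6 counts, and in the HFS-fed Xbp1 LKO libraries 31, 36 and 16 counts. No Xbp1 LKO library fell to the level of any Xbp1 fl/fl library.

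On the CPM scale, Tnfrsf10b was 0.22, 0.35 and 0.15 in chow-fed Xbp1 fl/fl and 0.64 and 1.53 in chow-fed Xbp1 LKO hepatocytes. After HFS feeding it was 0.24, 0.31 and 0.29 CPM in Xbp1 fl/fl and 1.26, 1.34 and 0.61 CPM in Xbp1 LKO hepatocytes. Every Xbp1 LKO library was above every Xbp1 fl/fl library on both diets. Groups that do not overlap in this way were common among all genes: 31.3% of the genes tested were separated between the chow groups, 26.1% between the HFS groups, and 7.53% between all 5 Xbp1 LKO and all 6 Xbp1 fl/fl libraries.

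With edgeR's quasi-likelihood test and Benjamini-Hochberg adjustment over all genes tested, Tnfrsf10b rose in Xbp1 LKO hepatocytes when the genotype effect was averaged over both diets (log2 fold change 2.05, SE 0.365, adjusted p = 0.00403). That is 4.13-fold, with a 95% confidence interval from 2.37 to 7.19-fold. In this comparison 5.25% of all genes were called higher and 6.64% lower. On chow alone the rise was 4.51-fold (log2 2.17, SE 0.545, edgeR adjusted p = 0.0446), where 1.73% of all genes were called higher and 3.02% lower. On the HFS diet the value was 3.79-fold (log2 1.92, SE 0.486, edgeR adjusted p = 0.0511), just short of the threshold of 0.05, and there 1.92% of genes were called higher and 2.16% lower.

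Those values do not show that the diets differ. The interaction, which tests the difference between the diet-specific genotype effects, was -0.25 on the log2 scale (95% interval -1.88 to 1.38, edgeR adjusted p = 0.979), and 0% of genes were called in it by edgeR, with 816 at an unadjusted p under 0.05 and 29 called by DESeq2. Diet itself left Tnfrsf10b at 0.24 on the log2 scale in Xbp1 fl/fl (95% interval -1.04 to 1.52) and at -0.016 in Xbp1 LKO hepatocytes (95% interval -1.04 to 1.01), and neither passed the test.

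The calls on single diets rest on few reads. On chow the call was lost when any 1 of 9 libraries was left out, that is each of the 11 but Xbp1 LKO chow library 1 and Xbp1 LKO HFS library 3 (edgeR adjusted p from 0.0595 to 0.457). On the HFS diet the difference passed the threshold without Xbp1 LKO chow library 1 or 2 or Xbp1 LKO HFS library 3 (edgeR adjusted p = 0.0378, 0.0397 and 0.0441). Without Xbp1 LKO chow library 2 the chow difference was 1.42 on the log2 scale (edgeR adjusted p = 0.457), and the average over diets was 1.67 (edgeR adjusted p = 0.0299). Counting error alone put the ratio of summed counts at 4.61 on chow (13 against 50 counts, exact 95% interval 2.47 to 9.25) and 3.85 on the HFS diet (17 against 83 counts, 2.26 to 6.91). Tnfrsf10b entered the test only through its Xbp1 LKO libraries, all 5 of which exceeded the filter's 0.456 CPM while 0 of the 6 Xbp1 fl/fl libraries did. In the same averaged comparison the endothelial markers had a median log2 difference of -0.90, with 4 of 12 called lower, and the macrophage markers one of 0.087, with none of 14 called by edgeR. The stellate and cholangiocyte markers had medians of -0.46 and 0.078. Some of these averages join opposite values on the 2 diets. The macrophage median was -0.51 on chow, with 0 of 14 positive, and 0.63 on the HFS diet, with 14 of 14 positive. The stellate median was -1.24 on chow, with 0 of 10 positive, and 0.26 on the HFS diet, with 7 of 10 positive. The endothelial median was -1.34 on chow and -0.42 on the HFS diet. Markers of lymphocytes and granulocytes were higher together with Tnfrsf10b: the 3 of 9 that could be tested had a median of 1.85 (1.68 on chow and 1.54 on the HFS diet) and were all positive, although none was called by edgeR or DESeq2 and 1 had an unadjusted p under 0.05. Their summed level, low like that of Tnfrsf10b, was 0.35 to 0.99 CPM in chow-fed Xbp1 fl/fl, 0.94 to 1.79 CPM in chow-fed Xbp1 LKO, 1.32 to 2.09 CPM in HFS-fed Xbp1 fl/fl and 1.38 to 6.59 CPM in HFS-fed Xbp1 LKO libraries. The genotypes overlapped in that sum on both diets, and it was highest in Xbp1 LKO HFS library 3. That library had the lowest Tnfrsf10b level of the Xbp1 LKO libraries, close to chow library 1 (0.61 and 0.64 CPM, 16 and 15 counts). The part of these cells in the Tnfrsf10b value was not tested.

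**Figure D1:**
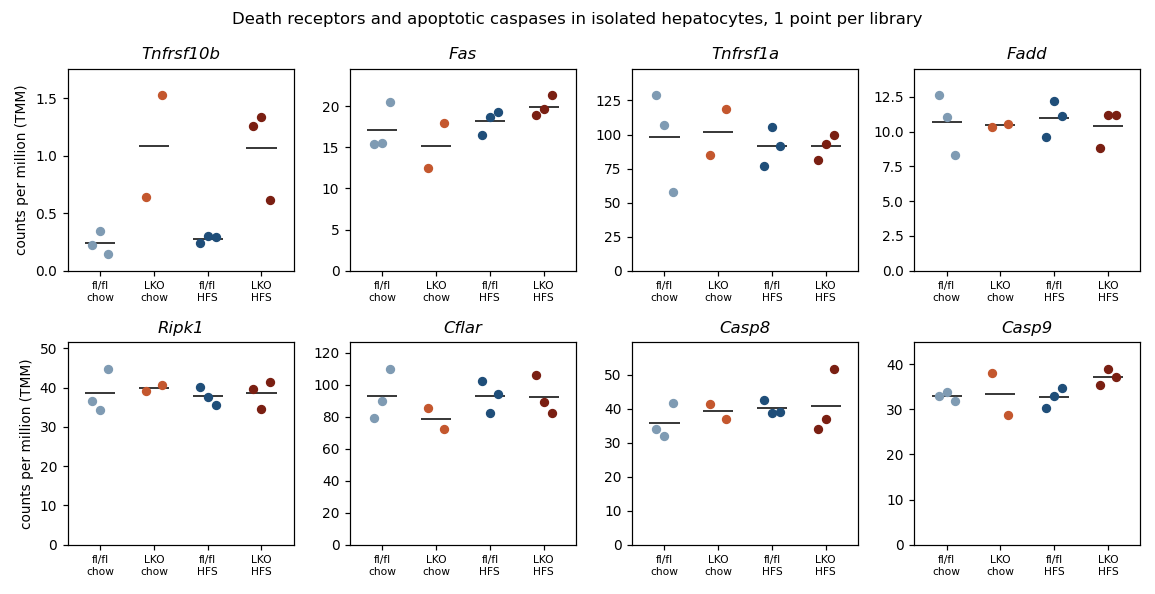
Level of each of the 8 genes in CPM (TMM-scaled, linear axes from 0), with 1 point per library and a line at the group mean, for Xbp1 fl/fl and Xbp1 LKO hepatocytes on chow or the HFS diet. Tnfrsf10b lies between 0.15 and 0.35 CPM in all Xbp1 fl/fl libraries and between 0.61 and 1.53 CPM in all Xbp1 LKO libraries, while the points of the other 7 genes overlap between genotypes on chow, and on the HFS diet all but Casp9 overlap.

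The stretch below is the end of the Tnfrsf10b coding sequence, shown because its mRNA is a described substrate of IRE1α, which cuts RNA within a CUGCAG core. It is read 5′ to 3′ from the plus strand at chr14:69782478-69782561 (GRCm38), inside exon 8 of 8, and covers coding bases 1058 to 1141 of 1146, with the CTGCAG letters in capitals.
Tnfrsf10b: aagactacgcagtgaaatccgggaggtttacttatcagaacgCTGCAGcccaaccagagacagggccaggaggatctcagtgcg
CTGCAG reads the same on both strands and occurs 1 time in this coding sequence. Among 2246 coding sequences within 10% of its length, 65.0% hold it as well, so the match is a description and not a site. The coding sequences of Fas and Casp9 hold it 1 time, those of Tnfrsf1a, Ripk1 and Cflar 2 times, that of Fadd 3 times, and that of Casp8 does not hold it.

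Stress-response genes were examined as a list of 9, all of them tested, and not each of them is a known regulator of Tnfrsf10b. Averaged over diets, 3 rose in Xbp1 LKO hepatocytes (Ddit3, Atf3 and Trib3) and 1 fell (Mapk8, the stress kinase JNK1). Among all genes 5.25% were called higher and 6.64% lower in this comparison. The list was chosen with earlier results of these data known. The median log2 difference of the list was 0.33, against 0.011 for all genes. Chow alone gave a rise of Ddit3, Atf3 and Trib3 as well, and the HFS diet alone a rise of Ddit3 and Atf3. Of all genes, 1.73% were called higher on chow and 1.92% on the HFS diet. Without Xbp1 LKO chow library 2 the chow differences were 2.87 for Atf3 (edgeR adjusted p = 0.0455), 2.04 for Ddit3 (edgeR adjusted p = 0.125) and 0.93 for Trib3 (edgeR adjusted p = 0.394).

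Ddit3, the transcription factor CHOP, was 4.52, 5.90 and 6.67 CPM in chow-fed Xbp1 fl/fl and 23.6 and 132 CPM in chow-fed Xbp1 LKO hepatocytes. After HFS feeding it was 5.10, 2.95 and 4.996 CPM in Xbp1 fl/fl and 15.8, 13.5 and 44.5 CPM in Xbp1 LKO hepatocytes. The Xbp1 LKO libraries were higher throughout, and library 2 on chow was far above the other libraries. The averaged difference was 3.13 on the log2 scale (SE 0.452, edgeR adjusted p = 0.00124), and 2.27 without that library (edgeR adjusted p = 0.00384).

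Atf3, a stress-induced transcription factor that acts with CHOP, was 0.50, 1.21 and 0.95 CPM in chow-fed Xbp1 fl/fl and 6.53 and 43.0 CPM in chow-fed Xbp1 LKO hepatocytes. HFS-fed libraries had 0.95, 0.61 and 0.69 CPM in Xbp1 fl/fl and 6.72, 3.24 and 9.43 CPM in Xbp1 LKO hepatocytes. Its averaged difference of 3.95 on the log2 scale (SE 0.496, edgeR adjusted p = 5.58e-04) was the largest among the tested genes of all 7 pathway and stress lists, and it was 2.98 without Xbp1 LKO chow library 2. Trib3, a pseudokinase induced by CHOP, rose by 1.69 on the same scale (edgeR adjusted p = 0.00536), and by 1.06 without that library (edgeR adjusted p = 0.0239). Its range was 13.0 to 17.2 CPM in Xbp1 fl/fl and 21.96 to 117 CPM in Xbp1 LKO libraries. There was no overlap, as for 7.53% of all genes tested.

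Within the Xbp1 LKO libraries these genes and Tnfrsf10b were not ordered alike. Xbp1 LKO HFS library 3 had the highest Ddit3, Atf3 and Trib3 levels of the HFS-fed libraries and the lowest Tnfrsf10b level of all 5 Xbp1 LKO libraries (0.61 CPM, 16 counts). Xbp1 LKO chow library 1 was close to it for Tnfrsf10b (0.64 CPM, 15 counts). Xbp1 LKO chow library 2 was highest for all 4 genes. These ranks rest on 15 to 36 Tnfrsf10b counts per library. The part of the stress genes in the Tnfrsf10b level was not tested. The remaining members of the list did not pass the genotype test averaged over diets: Atf4, which activates Ddit3, was at 0.16 on the log2 scale (edgeR adjusted p = 0.205), Trp53 at 0.33 (edgeR adjusted p = 0.0541) and Ern1 at 0.34 (edgeR adjusted p = 0.157). Mapk8 fell by 0.29 (edgeR adjusted p = 0.0452), and with library totals it was at -7.48e-04 (edgeR adjusted p = 0.995). Its call passed in 5 of 17 alternatives and was lost without Xbp1 LKO chow library 2 (-0.25, edgeR adjusted p = 0.200). Ppp1r15a, the stress-induced phosphatase subunit GADD34, differed by diet instead and was 0.60 lower on the log2 scale on the HFS diet when averaged over genotypes (edgeR adjusted p = 0.0213), where 1.1% of all genes were called; it was 0.48 lower without Xbp1 LKO chow library 2 (edgeR adjusted p = 0.102).

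**Figure D2:**
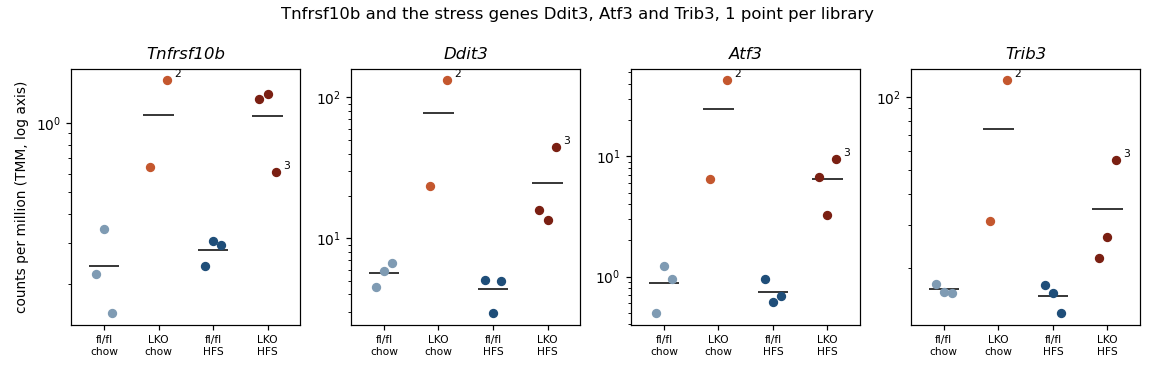
Tnfrsf10b beside the stress genes Ddit3, Atf3 and Trib3, in CPM on log axes with 1 point per library and a line at the group mean, where the digits mark Xbp1 LKO chow library 2 and Xbp1 LKO HFS library 3. All Xbp1 LKO points lie above all Xbp1 fl/fl points in each panel. HFS library 3 is the highest HFS-fed library for the 3 stress genes at 44.5, 9.43 and 55.3 CPM. For Tnfrsf10b it is the lowest Xbp1 LKO library at 0.61 CPM, close to chow library 1 at 0.64 CPM (16 and 15 counts).

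Genes that respond to the isolation of cells, such as Fos, Jun and Egr1, were listed because Atf3 also responds to tissue dissociation. Of 12 such genes 11 were tested, and none passed edgeR's test in any of the 7 comparisons (10 of 77 values had an unadjusted p under 0.05, and DESeq2 called 1). The median genotype difference was 0.0031 on the log2 scale on chow, with 6 of 11 positive, -0.35 on the HFS diet, with 1 of 11 positive, and -0.12 averaged. Their summed level was 564 to 751 CPM in chow-fed Xbp1 fl/fl and 695 to 726 CPM in chow-fed Xbp1 LKO libraries. On the HFS diet it was 458 to 848 CPM in Xbp1 fl/fl and 470 to 622 CPM in Xbp1 LKO libraries. The genotypes overlapped in that sum on both diets. Among single genes on chow, Junb, Dusp1 and Zfp36 were higher in both Xbp1 LKO libraries than in all Xbp1 fl/fl libraries. Fos and Fosb were lower in both. Between the chow groups 31.3% of all genes did not overlap. The part of cell isolation in the Atf3 values was not tested.

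A promoter motif was examined because Ddit3 and Atf4 bind composite sites of their families. The letters TGATGNAA were searched on both strands from 250 bases before to 50 bases after the RefSeq start (GRCm38.p6), where they occur in 3.97% of 32851 promoters. Promoters of 7 of the 8 members were in that table and 0 of the 7 held the motif; Tnfrsf10b had no entry. Of the 9 stress-response genes 2 held it, Atf3 and Trib3, both of which rose. The promoter of Ddit3, which rose too, did not hold it. The stretch of the Atf3 promoter at chr1:191183410-191183469, minus strand, is printed 5′ to 3′ with the motif in capitals, where it stands in reverse orientation 110 to 103 bases before the start. In Trib3 the motif lies after the start and is not printed.
Atf3: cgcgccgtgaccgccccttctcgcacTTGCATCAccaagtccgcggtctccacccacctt
The match is a description of the letters and says nothing of binding.

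The other receptors did not follow Tnfrsf10b. Fas, the receptor of Fas ligand (chr19:34290666-34327772, plus strand), was 15.4, 15.5 and 20.5 CPM in chow-fed Xbp1 fl/fl and 12.5 and 17.9 CPM in chow-fed Xbp1 LKO hepatocytes. After HFS feeding the levels were 16.5, 18.7 and 19.2 CPM in Xbp1 fl/fl and 18.9, 19.6 and 21.4 CPM in Xbp1 LKO hepatocytes. The genotypes overlapped on both diets, with a log2 difference of -0.17 on chow (95% interval -0.55 to 0.21) and 0.14 on the HFS diet (95% interval -0.20 to 0.47).

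Fas gave the smallest unadjusted diet p among the 7 members other than Tnfrsf10b. In Xbp1 LKO hepatocytes all 3 HFS-fed libraries were above both chow-fed libraries (log2 difference 0.39, SE 0.173, 95% interval 0.012 to 0.77), with an unadjusted p of 0.0443 by edgeR and an adjusted p of 0.378, so the difference did not pass the test. Among all genes, 0.0601% were called in this comparison and 31.1% had no overlap between the same groups. In Xbp1 fl/fl hepatocytes the diet difference of Fas was 0.083 (95% interval -0.26 to 0.42), in a comparison where 0.428% of genes were called and 13.7% had no overlap. Markers of other cell types moved with Fas here: from chow to HFS diet in Xbp1 LKO hepatocytes all 14 macrophage markers had positive log2 differences (median 1.31) and so did all 12 endothelial markers (median 1.55), none of them past edgeR's threshold although 6 macrophage and 12 endothelial markers had an unadjusted p under 0.05 and DESeq2 called 0 and 11. The stellate markers moved furthest, with all 10 positive (median 2.22), 7 at an unadjusted p under 0.05, none called by edgeR and 5 by DESeq2, and the 3 lymphocyte and granulocyte markers tested were positive too (median 1.54). Their part in the value of Fas was not tested. The interaction for Fas was 0.31 (SE 0.232, edgeR adjusted p = 0.885), so the diet differences of the genotypes were not shown to differ.

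Tnfrsf1a, the receptor through which TNF signals in hepatocytes (chr6:125349362-125362484, plus strand), had the largest replicate spread of the 7 within a group, with a coefficient of variation of 37.1% in chow-fed Xbp1 fl/fl libraries. It was 129, 107 and 58.0 CPM in chow-fed Xbp1 fl/fl and 85.2 and 119 CPM in chow-fed Xbp1 LKO hepatocytes. After HFS feeding it was 77.2, 105 and 91.7 CPM in Xbp1 fl/fl and 81.6, 93.2 and 99.3 CPM in Xbp1 LKO hepatocytes. Xbp1 fl/fl chow library 3 was the lowest and library 1 the highest of all 11, so the range of 1 group enclosed the others. The averaged genotype difference was 0.030 on the log2 scale (95% interval -0.38 to 0.44), an interval of -22.9% to 35.3% as a change in level.

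Fadd, the adaptor that joins receptor and caspase (chr7:144577318-144582463, minus strand), was 12.6, 11.04 and 8.31 CPM in chow-fed Xbp1 fl/fl and 10.3 and 10.6 CPM in chow-fed Xbp1 LKO hepatocytes. The HFS-fed levels were 9.62, 12.2 and 11.1 CPM in Xbp1 fl/fl and 8.80, 11.2 and 11.2 CPM in Xbp1 LKO hepatocytes. The groups overlapped, and the averaged genotype difference was -0.054 on the log2 scale (95% interval -0.33 to 0.22). Fadd shares 239 exon bases with its antisense gene Faddos, and the strand setting of the counting is not given in the sources used here.

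Ripk1, the kinase of the TNF receptor complex (chr13:34002363-34037147, plus strand), had narrower intervals than the other members upstream of the caspases. It was 36.5, 34.2 and 44.8 CPM in chow-fed Xbp1 fl/fl, 39.1 and 40.7 CPM in chow-fed Xbp1 LKO, 40.1, 37.6 and 35.7 CPM in HFS-fed Xbp1 fl/fl and 39.7, 34.6 and 41.3 CPM in HFS-fed Xbp1 LKO hepatocytes. All groups overlapped, and the averaged genotype difference of 0.040 on the log2 scale had a 95% interval from -0.15 to 0.23 on that scale and from -9.88% to 17.2% as a change in level. Its exons share 241 bases with Serpinb6a on the other strand and 511 bases with a processed pseudogene, Gm17084, on its own strand.

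Cflar and Casp8 are neighbours on chromosome 1, at chr1:58711508-58758884 and chr1:58795374-58847503, both on the plus strand. Cflar, the inhibitor, was 79.2, 89.9 and 110 CPM in chow-fed Xbp1 fl/fl, 85.6 and 72.1 CPM in chow-fed Xbp1 LKO, 102, 82.1 and 94.1 CPM in HFS-fed Xbp1 fl/fl and 106, 89.1 and 82.4 CPM in HFS-fed Xbp1 LKO hepatocytes. The genotypes overlapped on both diets, and the difference on chow was -0.24 on the log2 scale (95% interval -0.60 to 0.13, edgeR adjusted p = 0.485). The value on the HFS diet was -0.0049 (95% interval -0.33 to 0.32).

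Casp8, the initiator caspase of the receptor route, was 34.04, 31.96 and 41.6 CPM in chow-fed Xbp1 fl/fl, 41.4 and 37.1 CPM in chow-fed Xbp1 LKO, 42.4, 38.6 and 39.1 CPM in HFS-fed Xbp1 fl/fl and 34.01, 36.9 and 51.7 CPM in HFS-fed Xbp1 LKO hepatocytes. Xbp1 LKO HFS library 3, the highest of the 11 for Casp8, was also the lowest Xbp1 LKO library for Tnfrsf10b, close to chow library 1 (16 and 15 counts). The averaged genotype difference was 0.079 on the log2 scale (95% interval -0.18 to 0.33), and on the HFS diet the value of 0.029 was -0.18 without library 3.

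Casp9, the initiator caspase of the apoptosome (chr4:141793612-141815976, plus strand), was 33.0, 33.9 and 31.9 CPM in chow-fed Xbp1 fl/fl and 38.0 and 28.8 CPM in chow-fed Xbp1 LKO hepatocytes. HFS-fed levels were 30.2, 32.9 and 34.8 CPM in Xbp1 fl/fl and 35.4, 39.0 and 37.1 CPM in Xbp1 LKO hepatocytes. The HFS-fed genotypes did not overlap, as 26.1% of all genes did not, and the log2 difference of 0.19 (SE 0.11, 95% interval -0.055 to 0.43) did not pass edgeR's test (adjusted p = 0.435). With library totals as the scale it was 0.45 (edgeR adjusted p = 0.0237), in a fit where the median of all genes on the HFS diet moved by 0.27. Casp9 shares 94 exon bases with Cela2a and with Ctrc on the other strand.

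Across the 7 members other than Tnfrsf10b, then, no comparison gave a call by edgeR with TMM scaling, and none gave one by DESeq2. In the edgeR fit 1 of 49 values, that of Fas, had an unadjusted p under 0.05. Averaged over diets, their genotype differences ran from -0.12 for Cflar to 0.10 for Casp9 on the log2 scale, the 95% intervals together spanned -0.38 to 0.44, and the lowest adjusted p was 0.496. These intervals do not show equal levels. With TMM scaling they reached from 0.771-fold to 1.35-fold for the averaged changes. Each is a 95% interval for its own gene and not for the 7 genes jointly. On single diets the intervals were wider, from 0.658 to 1.59-fold on chow and from 0.687 to 1.45-fold on the HFS diet. They do not include the uncertainty of the scaling itself. Library totals shifted the median of all genes by 0.30 in this comparison. With them Ripk1, Casp8 and Casp9 were called at 0.33, 0.37 and 0.39 (edgeR adjusted p = 0.0182, 0.0328 and 0.00373).

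**Figure D3:**
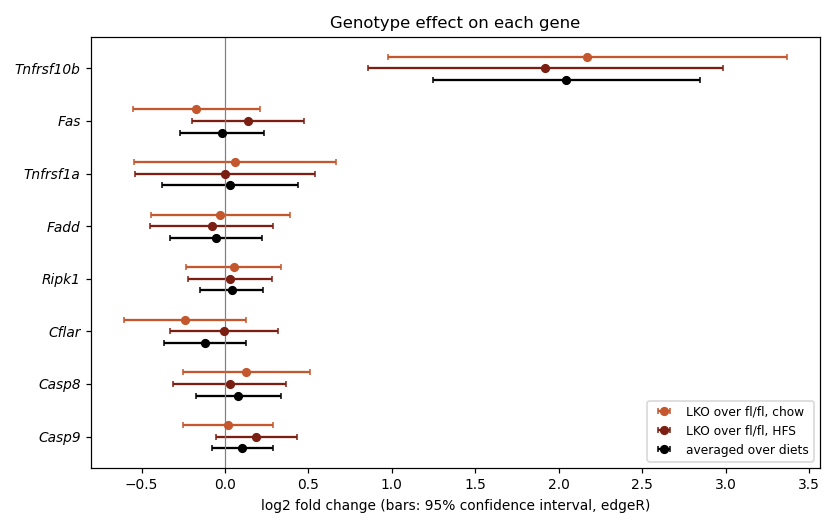
Genotype effect on each gene as log2 fold change of Xbp1 LKO over Xbp1 fl/fl hepatocytes on chow, on the HFS diet and averaged over diets, with bars for the 95% confidence interval of the edgeR fit. The 3 intervals of Tnfrsf10b lie above 0, with the averaged value at 2.05, and all intervals of the other 7 genes include 0. The intervals are not adjusted over genes. After adjustment Tnfrsf10b was not called on the HFS diet (edgeR adjusted p = 0.0511), and its call on chow rests on few reads.

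The balance of inhibitor and caspase was compared within each library, where scaling has no part. The ratio of Cflar to Casp8 counts was 2.33, 2.81 and 2.64 in chow-fed Xbp1 fl/fl and 2.07 and 1.95 in chow-fed Xbp1 LKO hepatocytes. On the HFS diet it was 2.41, 2.13 and 2.41 in Xbp1 fl/fl and 3.11, 2.41 and 1.59 in Xbp1 LKO hepatocytes. The chow groups did not overlap and the HFS groups did. The log2 ratio was lower by 0.19 in Xbp1 LKO than in Xbp1 fl/fl libraries (5 against 6 libraries, two-sided exact permutation test within diets, p = 0.30, adjusted over 2 ratios p = 0.60). On chow alone it was lower by 0.37 (exact permutation p = 0.20), where 2 against 3 libraries allow no p under 0.1, and on the HFS diet it was lower by 0.013 (exact permutation p = 1). With each library left out in turn the difference over both diets ran from -0.30 (without Xbp1 LKO HFS library 1) to -0.059 (without Xbp1 LKO HFS library 3).

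The ratio of Casp9 to Casp8 counts, between the initiators of the mitochondrial and the receptor route, ranged from 0.712 to 1.06 in Xbp1 fl/fl and from 0.718 to 1.06 in Xbp1 LKO libraries. Its log2 difference between genotypes was 0.026 (exact permutation p = 0.865, adjusted p = 0.865).

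Levels can be compared between genes only per length. Per kilobase of all annotated exons, Tnfrsf1a had the highest median of the 8 over all libraries, with 35.95 RPKM (22.4 to 49.8), followed by Casp8 with 13.4 RPKM (11.05 to 17.9). Fas followed with 9.06 RPKM (6.06 to 10.4), Cflar with 7.03 RPKM (5.69 to 8.68) and Casp9 with 6.53 RPKM (5.54 to 7.50). These 3 neighbours overlapped over the libraries. Ripk1 had 4.68 RPKM (4.10 to 5.36), Fadd 2.83 RPKM (2.13 to 3.24) and Tnfrsf10b 0.064 RPKM (0.027 to 0.28), each range below the one before it.

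The length chosen sets part of that order. Cflar has 12669 exon bases in all but 1771 in the transcript with its longest coding sequence, and per kilobase of that transcript Cflar came first with a median of 50.3 RPKM (40.7 to 62.1), overlapping Tnfrsf1a at 43.2 RPKM (26.9 to 59.9). Casp8 and Fas followed, and Ripk1 stood before Casp9 at 11.97 against 8.71 RPKM. Fadd and Tnfrsf10b were last by both lengths.

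**Figure D4:**
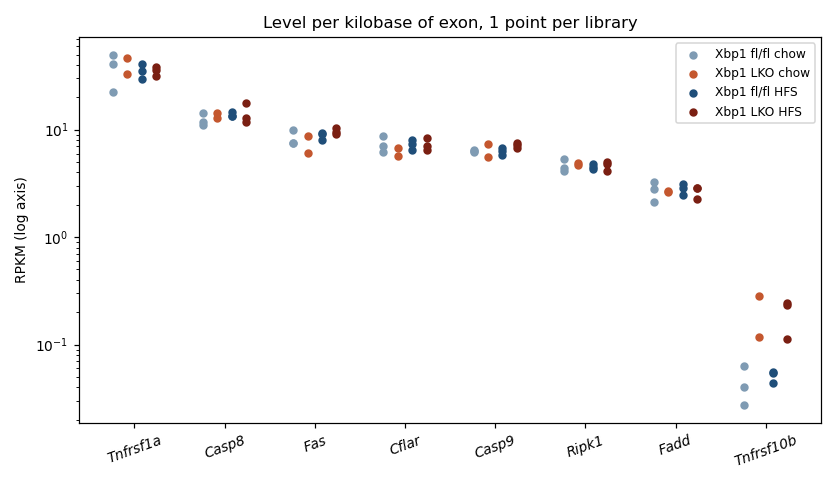
Level of each gene per kilobase of all annotated exons (RPKM, log axis), 1 point per library coloured by genotype and diet, in order of the median. Tnfrsf1a has a median of 35.95 RPKM and Tnfrsf10b of 0.064 RPKM, and the order of Cflar depends on the length used.

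Some members moved together across the 11 libraries without regard to genotype. On log2 CPM, Pearson's r was 0.86 between Tnfrsf1a and Fadd, -0.87 between Tnfrsf1a and Cflar and -0.77 between Fadd and Cflar, given as descriptions of 11 libraries in which every gene shares the depth and base composition of its library. Tnfrsf10b was not close to any other member, with r from -0.32 for Cflar to 0.27 for Casp9. The libraries differed in base composition: an index, the mean log2 deviation of the quintile of genes richest in GC minus that of the poorest quintile, was -0.30 in Xbp1 fl/fl chow library 3 and 0.20 in Xbp1 fl/fl chow library 1. These were the lowest and the highest of the 11 libraries, as for Tnfrsf1a and Fadd, and library 3 had the highest Cflar and Ripk1 levels. The GC content of the member transcripts was 55.9% for Tnfrsf1a, 53.4% for Casp9, 51.2% for Fadd, 49.3% for Ripk1, 49.2% for Cflar, 48.9% for Tnfrsf10b, 47.1% for Casp8 and 43.4% for Fas. Casp9, second in GC content, had an r of -0.057 with Tnfrsf1a and 0.17 with Fadd. The part of base composition in these patterns was not tested.

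Among 11123 genes with a mean of at least 1 CPM, the 3 whose log2 CPM was most like Tnfrsf10b over the 11 libraries were Prrg4, Tmem43 and Mdm1 (r = 0.94 for each). The genes nearest to the other receptors were Zfp53, Api5 and Oxr1 for Fas (r from 0.87 to 0.91) and Neu1, Csk and Pigs for Tnfrsf1a (0.93 to 0.96). Those nearest to Fadd were Agbl5, Ppp2r1a and Fem1a (0.92 to 0.93), and those nearest to Ripk1 were Rbm39, Zfp623 and Ak6 (0.90 to 0.93). For Cflar they were Arl5b, Vps13a and 9930021J03Rik (0.92 to 0.95), for Casp8 Zfp952, Cct4 and Oard1 (0.86 to 0.89), and Nln was among the 3 for Casp9 (0.87). These were the highest of many correlations and are given as likeness of pattern alone.

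The genes around the members were counted by list. Of the 6 death ligands, 2 had enough counts to be tested, and neither passed edgeR's test in any comparison (4 of 14 values had an unadjusted p under 0.05, and DESeq2 called 1). Tnfsf10 (TRAIL), the ligand of Tnfrsf10b, was 5.24, 3.01 and 1.39 CPM in chow-fed Xbp1 fl/fl, 2.65 and 1.27 CPM in chow-fed Xbp1 LKO, 5.14, 8.65 and 5.73 CPM in HFS-fed Xbp1 fl/fl and 3.58, 5.09 and 5.98 CPM in HFS-fed Xbp1 LKO hepatocytes. The genotypes overlapped, and its averaged genotype difference was -0.56 on the log2 scale (edgeR adjusted p = 0.319). Its diet difference averaged over genotypes was larger, at 1.17 (edgeR unadjusted p = 0.00411, adjusted p = 0.122). The DESeq2 call among the ligands fell in that diet comparison. Averaged likewise, endothelial markers had medians of -0.90 by genotype and 1.11 by diet, and macrophage markers of 0.087 and 0.52. The part of these cells in the Tnfsf10 values was not tested. Fasl had 1 count in 1 library and 0 in the other 10, and Tnf had at most 3 counts in a library.

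Of 10 other death and decoy receptors 6 were tested, and 1 was called. It rose when averaged over diets, where 5.25% of all genes were called higher. Eda2r, a receptor for the ectodysplasin A2 ligand that is known as a p53 target, was 0.61 to 3.12 CPM in Xbp1 fl/fl and 1.83 to 8.39 CPM in Xbp1 LKO libraries, which overlap. The averaged difference was 1.77 on the log2 scale (SE 0.424, edgeR adjusted p = 0.0195), and 1.09 without Xbp1 LKO chow library 2 (edgeR adjusted p = 0.174). The median of the list was -0.012, against 0.011 for all genes.

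The 21 partners of the receptor complexes were all tested, and 2 fell in Xbp1 LKO hepatocytes when averaged over diets. In that comparison 6.64% of all genes were called lower. Sharpin is a subunit of the linear ubiquitin ligase that marks Ripk1 for survival signalling. It was 28.2 to 35.96 CPM in Xbp1 fl/fl and 20.2 to 23.8 CPM in Xbp1 LKO libraries. Like 7.53% of all genes tested, Sharpin did not overlap between the genotypes. Its averaged difference was -0.59 on the log2 scale (SE 0.080, edgeR adjusted p = 8.70e-04), and it was called on the HFS diet (-0.68, edgeR adjusted p = 0.00565) and on chow (-0.50, edgeR adjusted p = 0.0356), there in 7 of 18 alternatives and not without Xbp1 LKO chow library 2 (-0.47, edgeR adjusted p = 0.258). Birc3 (cIAP2), a ubiquitin ligase of the TNF receptor complex, was at -0.54 (edgeR adjusted p = 0.00983), and at -0.49 without Xbp1 LKO chow library 2 (edgeR adjusted p = 0.0602). It was called on chow as well (-0.78, edgeR adjusted p = 0.0256), in 13 of 18 alternatives, and was at -0.68 there without that library (edgeR adjusted p = 0.248). On the HFS diet Birc3 was not called (-0.30, edgeR adjusted p = 0.333). Its interaction of 0.48 (edgeR adjusted p = 0.812) does not show that the diets differ. The median of the list was 0.034. Scaling by library totals shifted the median of all genes by 0.30 in this comparison, and with it Sharpin was at -0.30 (edgeR adjusted p = 0.0157) and Birc3 at -0.25 (edgeR adjusted p = 0.113).

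The apoptosome and the steps that follow it were counted over 15 genes, all tested, and this list does not hold every known gene of that route. None of the 15 passed edgeR's test in any comparison (7 of 105 values had an unadjusted p under 0.05, and DESeq2 called 2). Apaf1, the scaffold of the apoptosome, was 1.77, 1.16 and 0.90 CPM in chow-fed Xbp1 fl/fl, 0.77 and 2.14 CPM in chow-fed Xbp1 LKO, 1.19, 0.97 and 1.42 CPM in HFS-fed Xbp1 fl/fl and 2.16, 1.93 and 2.72 CPM in HFS-fed Xbp1 LKO hepatocytes. The genotypes overlapped on chow and not on the HFS diet, where 26.1% of all genes did not overlap. The averaged difference of Apaf1 was 0.56 on the log2 scale (edgeR adjusted p = 0.258). Bid, which links Casp8 to the mitochondria, was at -0.041 (edgeR adjusted p = 0.825). The median of the list was 0.083.

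Of the 5 necroptosis genes 4 were tested and none was called by edgeR or DESeq2, nor had an unadjusted p under 0.05 in any comparison (0 of 28 values); Mlkl, the pore-forming effector, was at 0.13 on the log2 scale (edgeR adjusted p = 0.825), and Ripk3, the kinase that activates it, had too few counts to be tested. Taking the pathway lists together, 4 of 57 tested genes rose and 3 fell in the averaged genotype comparison, beside the 5.25% and 6.64% of all genes given above.

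**Figure D5:**
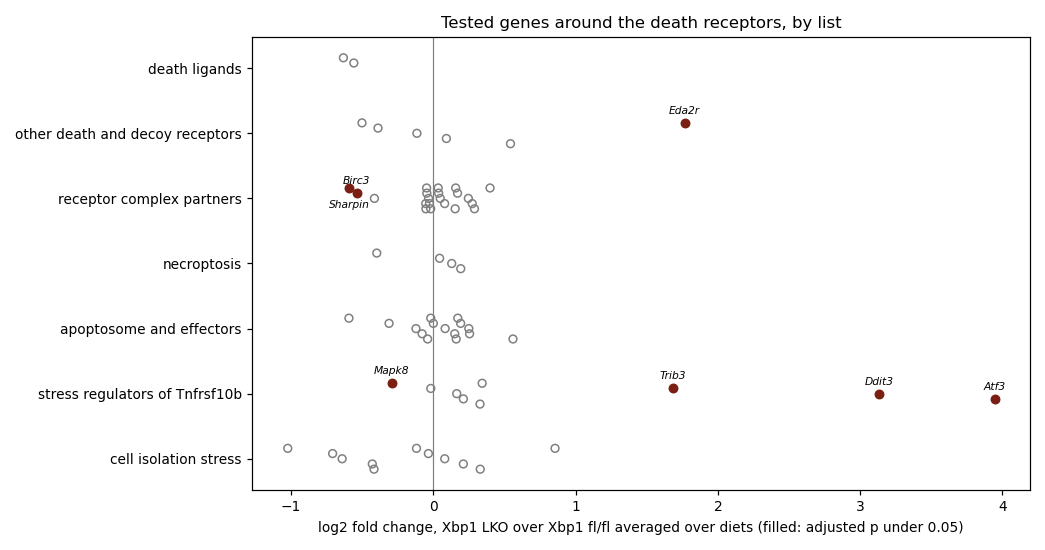
Log2 fold change of Xbp1 LKO over Xbp1 fl/fl hepatocytes averaged over diets for each tested gene of the 6 pathway lists and the cell isolation list, 1 point per gene, filled where the adjusted p of edgeR is under 0.05. Eda2r, Trib3, Ddit3 and Atf3 are filled to the right of 0, from 1.69 to 3.95, and Mapk8, Birc3 and Sharpin to the left, from -0.29 to -0.59.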

How the data were processed

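Whole-number counts per Ensembl gene were deposited for each library, not normalized. According to the paper the authors quantified single-end 50 base reads with kallisto and tximport, whereas the submitters' processing notes name cutadapt 1.13, STAR, HTSeq 0.6.1p1, DESeq2 and mm10. The version of the annotation and the strand setting of the counting are not given in the sources used here. GENCODE M21 on GRCm38 gave symbols for 54165 of 54232 identifiers. All 37 mitochondrial genes had 0 counts.

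From these counts edgeR 4.0.16 (R 4.3.3) computed TMM factors and CPM, low genes were removed by filterByExpr at a minimum count of 10, and its quasi-likelihood test was run with 1 coefficient for each of the 4 groups over the 11 libraries. Adjusted p-values (Benjamini-Hochberg) under 0.05 were called. Alternatives were DESeq2 1.42.0, other scalings and filters, the replicate block, only the groups compared, and each library left out. The code was tested on simulated counts. Between replicates, chi-square over its degrees of freedom was 25.4 to 91.5, where counting error alone gives 1. Libraries with the same replicate number are different animals. Their deviations from the group means correlated at -0.20 to 0.23, above 0.1 in 4 of 15 pairs. Pairs with different numbers were not compared, so this does not show whether libraries of the same number deviate together. Named genes are the 8 members, list genes past the threshold (at most 5 per list and comparison) and the 3 genes most like each member; other list genes were named after their values were seen. Some genes of the pathway lists and of those most like a member are not reported here, so the list counts leave them out. The members and lists were chosen with earlier results of these data known. RPKM divides CPM by exon length. Groups follow the sample labels.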

Additional observations from a re-analysis of the deposited data

How the results depend on the processing

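The averaged genotype difference of Tnfrsf10b passed the threshold in 17 of 17 alternatives (log2 1.67 to 2.35, highest adjusted p 0.0299), whereas on chow it passed in 7 of 18 (adjusted p 0.0057 to 0.457) and on the HFS diet in 7 of 18 (0.00686 to 0.181). These alternatives reuse the same 11 libraries and are not independent of each other. In the main fit Tnfrsf10b passed the filter only through its Xbp1 LKO libraries. With the replicate number of the sample titles as a block, the Tnfrsf10b difference was 1.92 on chow (edgeR adjusted p = 0.0736), so no member was called there (0). The block changed no other member's call and gave 19 genes for diet in Xbp1 LKO mice. With only the groups compared, 0 members and 233 genes were called on chow, 1 member on the HFS diet, and 0 genes for diet in Xbp1 LKO mice. On the HFS diet 1 member was called by DESeq2 and with no filter.

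Library totals moved the median of all genes by 0.33 on chow, 0.27 on the HFS diet and 0.30 averaged, and called 3000, 1483 and 5802 genes with 2685, 1288 and 5304 of them higher, and 2 members on the HFS diet and 4 averaged (Tnfrsf10b, Ripk1, Casp8 and Casp9). Under them Fas, Fadd and Cflar turned to 0.17, 0.30 and 0.085 on chow, Tnfrsf1a, Fadd and Cflar to 0.26, 0.19 and 0.25 on the HFS diet, and Fas, Fadd and Cflar to 0.28, 0.24 and 0.17 averaged. With no filter 1507, 1438, 499, 722, 269 and 1003 genes were called for genotype on chow, on the HFS diet, diet in Xbp1 fl/fl, in Xbp1 LKO, the interaction and averaged diet, and by DESeq2 1130, 1007, 181, 213, 29 and 531.

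Leaving out each library in turn gave 69 to 762 genes for genotype on chow, 184 to 662 on the HFS diet, 846 to 1735 averaged, 6 to 59 for diet in Xbp1 fl/fl, 0 to 36 in Xbp1 LKO and 58 to 266 averaged, with 0 to 1 members for genotype on either diet. Some differences that passed no threshold changed sign among these fits. By genotype, they spanned -0.46 to 0.064 for Fas and -0.20 to 0.20 for Casp9 on chow, -0.18 to 0.15 for Casp8 on the HFS diet, and -0.16 to 0.098 for Fas and -0.0064 to 0.20 for Casp9 averaged. By diet, they spanned -0.37 to 0.15 for Tnfrsf1a and -0.11 to 0.095 for Ripk1 in Xbp1 fl/fl, -0.51 to 0.75 for Tnfrsf10b, -0.14 to 0.18 for Casp8 and -0.025 to 0.36 for Casp9 in Xbp1 LKO mice, and -0.016 to 0.18 for Casp9 averaged. The interaction spanned -0.75 to 0.51 for Tnfrsf10b and -0.017 to 0.38 for Casp9. The ratio of Casp9 to Casp8 was -0.13 on chow alone and -0.041 to 0.12 with a library left out. Tested alike, after the data were seen, Ddit3 and Atf3 averaged over diets passed in 17 of 17 alternatives, and Ddit3 on the HFS diet in 9 of 18. The cause of these changes was not tested. Depth limits the precision of Tnfrsf10b, at 3 to 6 counts in each Xbp1 fl/fl library.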
